A study of Mus musculus with 10 samples.

Results

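The genes of glycolysis and of the hypoxia response were examined in macrophages grown from mouse bone marrow. The set holds 32 listed gene symbols of the 54307 genes in the count table, chosen by symbol and not by their level. Of these, 31 were matched through the symbol column of the deposited log2 table, and Ero1l, which that table calls Ero1a, was matched through the GENCODE M21 symbol of its gene ID. All 32 genes had reads, and 31 were expressed strongly enough to be tested, the exception being Adm.

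The series compared 5 libraries from mice with the hWDFY3 KI/KI genotype, a knock-in carried on 2 alleles that the labels describe as overexpression of human WDFY3, with 5 libraries from wild-type control mice. WDFY3 is a large scaffold protein of selective autophagy. All mice were males of 6 to 8 weeks, the labels give 1 mouse per library, and every culture was differentiated in medium with 20% L-929 fibroblast conditioned medium and harvested on day 7. Neither the promoter of the knock-in nor the level of the human transcript is stated in the labels. Mouse Wdfy3 averaged 120 ± 6.19 CPM in knock-in macrophages and 110 ± 9.83 CPM in control macrophages (SD, n = 5 each; adjusted p = 0.811). The table counts mouse genes, so this value does not check the human transcript.

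Glycolysis breaks glucose down to pyruvate in the cytosol. Glucose enters through Slc2a1, hexokinases trap it, phosphofructokinase sets much of the pace, and lactate dehydrogenase and the lactate carriers dispose of the end product. Hypoxia-inducible factor (HIF) is a transcription factor whose alpha subunits, Hif1a and Epas1, are marked for destruction by the prolyl hydroxylases Egln1, Egln2 and Egln3 when oxygen is present. When the alpha subunits escape, HIF raises many glycolytic genes, and macrophages are known for using this route during inflammatory activation.

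Library totals were 15.2 to 22.9 M estimated counts in knock-in and 14.6 to 36.4 M in control macrophages. The 32 genes together took 0.929 to 1.02% of the counts in knock-in and 0.921 to 1.03% in control libraries. The label of the cells fits their content, since all 15 macrophage markers were expressed, with a summed level of 42476 to 50121 CPM in knock-in and 35529 to 47092 CPM in control libraries. CPM are counts per M counts of the scaled library. Stromal RNA was also present. The 20 stromal and fibroblast markers, of which 13 were tested and 0 were at 0 in all libraries, summed to 43.5 to 445 CPM in knock-in and 104 to 769 CPM in control libraries. Knock-in 4, control 1 and control 4 had the highest mean log2 CPM of these markers. The 16 neutrophil markers summed to 209 to 460 CPM in knock-in and 278 to 638 CPM in control libraries, and their mean log2 CPM was highest in the same 3 libraries, although their sum in the knock-in libraries was highest in knock-in 1. In bulk RNA, fewer cells of a type and less RNA per cell cannot be told apart.

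No gene of the set passed the test for genotype. In edgeR's quasi-likelihood test with Benjamini-Hochberg adjustment over 12411 genes, 0 of the 31 tested members had an adjusted p under 0.05, against a background of 10 called genes (0.0806%). An unadjusted p under 0.05 was reached by 2 members (6.45%), Ero1l and Mxi1, against 6.21% of all tested genes. DESeq2 called 1 member, Ero1l, against 0.378% of its tested genes. Without the 3 stroma-rich libraries edgeR called 1 member, Ero1l, against 0.304% of all genes, and without control 1 it called the same gene, against 0.0802% of all genes. The knock-in and control libraries overlapped for all 31, while 1.32% of all tested genes did not overlap.

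The differences were small for most members. The fitted log2 fold change of knock-in over control was positive for 13 and negative for 18 members, with a median of -0.022, where the median of all tested genes was -0.0046. It lay within 0.2 of 0 for 26 members. Small differences were common in the whole table: the median absolute log2 fold change was 0.039 for members and 0.077 for all tested genes. The interval of 2 SE lay within a 1.25-fold change either way for 22 of the 31, so that for these genes a larger difference was outside the interval. It excluded 0 for Ero1l and Mxi1. Of the 20 members in glucose uptake, glycolysis and lactate handling, 10 were positive and 10 negative, and 17 had an interval within 1.25-fold. These counts take Eno1 as positive, although its sign turned when its copies were summed (log2 -0.11). Of the 11 tested members of the hypoxia response, 3 were positive and 8 negative.

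**Figure D1:**
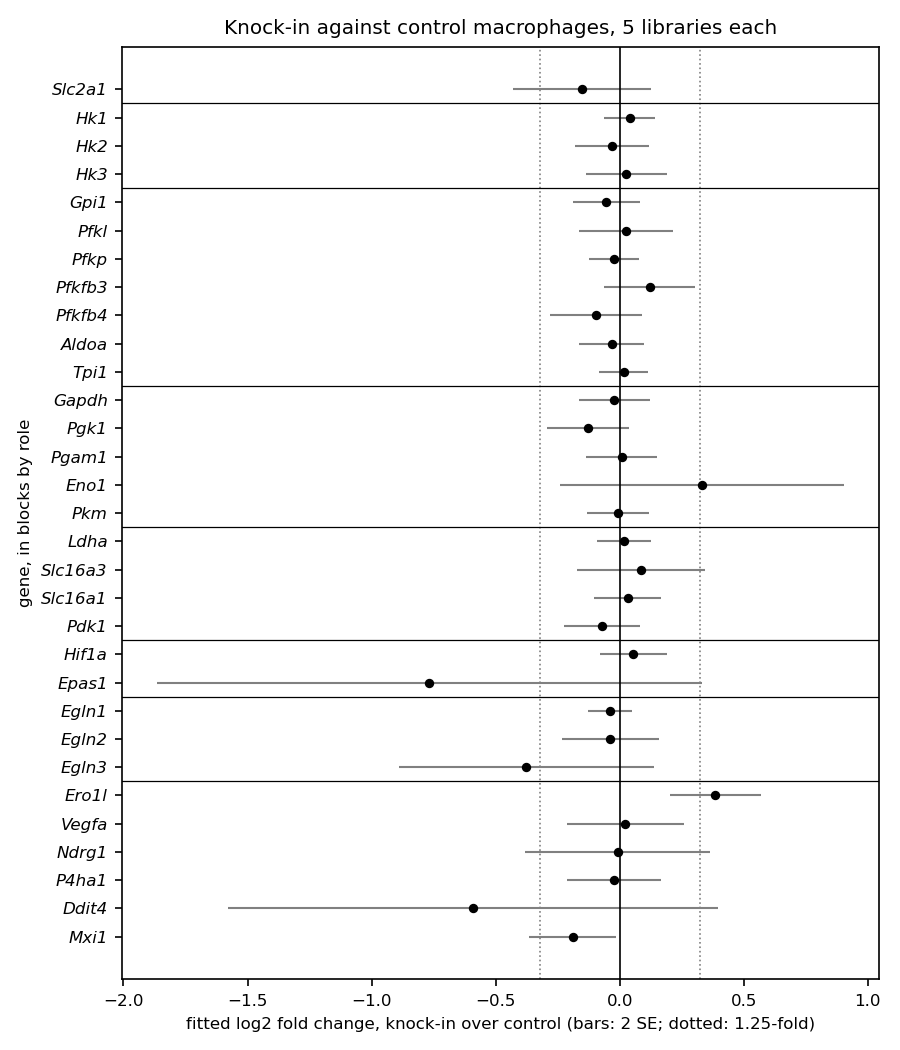
Fitted log2 fold change of each tested gene, knock-in over control, on the x axis, with bars of 2 SE (5 libraries each) and dotted lines at 1.25-fold. Most intervals are narrow and cross 0, Ero1l lies to the right at 0.39, and Eno1, Epas1, Egln3 and Ddit4 have wide intervals.

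The levels spanned more than 3 orders of magnitude when scaled by length. In CPM per kb of annotated exon, averaged over all 10 libraries, Gapdh, the dehydrogenase of the middle of the pathway, was highest at 449. Pkm, pyruvate kinase, followed at 415, Aldoa, an aldolase, at 400, and Pgam1, a phosphoglycerate mutase, at 308. The libraries of the first 3 overlapped. Pgk1 at 206, Ldha at 171, Hk3 at 137 and Tpi1 at 123 came next, and the glucose carrier Slc2a1 stood at 26.8. Below it lay the angiogenic factor Vegfa at 24.1 and the collagen prolyl hydroxylase P4ha1 at 22.5. Hif1a stood at 15.7 and Epas1 at 3.55, both on the same scale of CPM per kb. The lowest were Ddit4 at 0.786, Egln3 at 0.761 and Adm at 0.0969. The exon length covers every annotated transcript of a gene, so genes with long unused exons are placed too low.

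**Figure D2:**
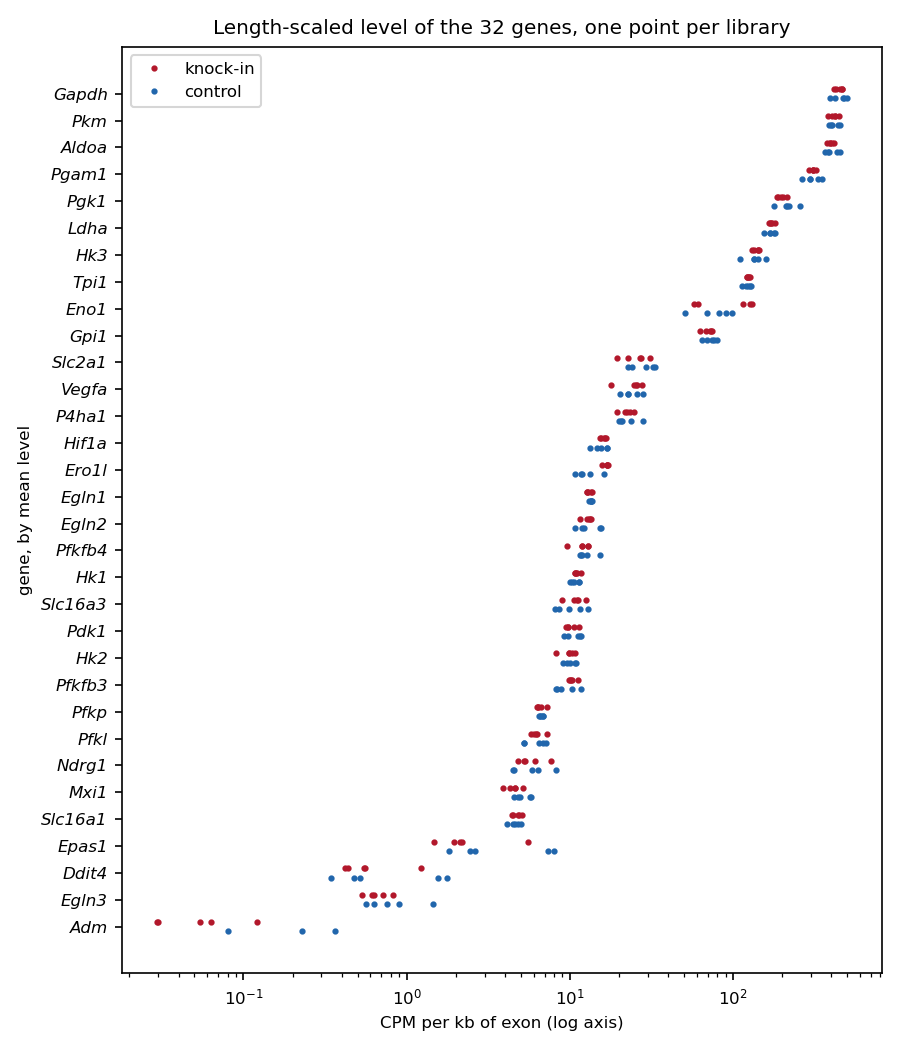
CPM per kb of annotated exon on a log axis, 1 point per library, with genes ordered by their mean; points at 0 are not drawn. Gapdh, Pkm and Aldoa lie at the top at 449, 415 and 400, and the means of Ddit4, Egln3 and Adm lie below 1.

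Slc2a1 (ENSMUSG00000028645, chromosome 4, 119108711 to 119137983 in GRCm38), the main glucose carrier of many cells, had 96.1, 93.7, 79.5, 108 and 68.5 CPM in knock-in libraries 1 to 5, against 113, 84.1, 102, 116 and 79.4 CPM in control libraries 1 to 5. The groups overlapped, and the highest library of each genotype was a stroma-rich one. The log2 fold change was -0.15 ± 0.14 (SE, adjusted p = 0.889).

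Hk3, the hexokinase typical of myeloid cells, had 528, 481, 523, 498 and 524 CPM in knock-in libraries, against 408, 493, 588, 495 and 522 CPM in control libraries. It was the most abundant of the 3 hexokinases on the length scale, at 137 CPM per kb, against 10.9 for Hk1 and 9.95 for Hk2. The knock-in libraries lay inside the range of the controls, and the log2 fold change was 0.027 ± 0.081. Hk1, the housekeeping form, and Hk2, the form induced by HIF, had log2 fold changes of 0.040 ± 0.051 and -0.031 ± 0.075.

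The 7 members of upper glycolysis ranged from a log2 fold change of -0.095 for Pfkfb4 to 0.12 for Pfkfb3. These 2 genes encode enzymes that make and remove fructose 2,6-bisphosphate, the activator of phosphofructokinase. Pfkfb3 had 78.1, 75.4, 77.1, 84.5 and 74.7 CPM in knock-in libraries, against 88.9, 63.0, 66.5, 77.5 and 62.4 CPM in control libraries. The 3 controls without much stromal RNA lay below every knock-in library, and the stroma-rich controls lay within or above the knock-in range. Its log2 fold change was 0.12 ± 0.092 (adjusted p = 0.856), and without the 3 stroma-rich libraries it was 0.26 ± 0.055 (adjusted p = 0.136). Aldoa had 1142, 1178, 1144, 1205 and 1092 CPM in knock-in libraries, against 1118, 1068, 1321, 1264 and 1123 CPM in control libraries. The knock-in range again lay inside that of the controls. Gpi1, the glucose phosphate isomerase, the phosphofructokinases Pfkl and Pfkp, and Tpi1, triose phosphate isomerase, had log2 fold changes between -0.054 and 0.026.

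In lower glycolysis, Gapdh had 1858, 1932, 1775, 1912 and 1728 CPM in knock-in libraries, against 1952, 1731, 1977, 2076 and 1614 CPM in control libraries. Pkm had 2098, 2218, 2026, 2101 and 1918 CPM in knock-in libraries, against 2019, 1977, 2211, 2275 and 1927 CPM in control libraries. For both genes the genotypes were interleaved, and the log2 fold changes were -0.023 ± 0.072 and -0.0068 ± 0.062. Pgk1, phosphoglycerate kinase, averaged 442 ± 25.7 CPM in knock-in and 483 ± 62.5 CPM in control macrophages (log2 -0.13 ± 0.083, adjusted p = 0.842). Pgk1 shares a match of 1252 bases at 100% identity with the processed pseudogene Gm5537, which took 39.4 CPM on average, so that some of its reads cannot be placed with certainty. With its matching copies added, Pgk1 differed by a log2 of -0.091 ± 0.069. Pgam1 averaged 612 ± 22.5 CPM in knock-in and 609 ± 67.4 CPM in control macrophages.

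Eno1, which encodes the main enolase, was the member whose libraries differed most among the abundant genes. It had 707, 681, 311, 329 and 616 CPM in knock-in libraries, against 484, 443, 372, 528 and 273 CPM in control libraries. The knock-in libraries fell into 3 high and 2 low ones, and the controls lay from 273 to 528 CPM, below the 3 high ones. Eno1b, an annotated copy on chromosome 18, ran the other way, with 13.7, 8.06, 516, 562 and 13.9 CPM in knock-in libraries, against 281, 280, 559, 330 and 507 CPM in control libraries. Eno1 took 98.1, 98.8 and 97.8% of the summed reads of the enolase copies in knock-in 1, 2 and 5, and 37.5 and 36.8% in knock-in 3 and 4. In controls 1, 2 and 4 it took 63.1, 61.2 and 61.4%, and in controls 3 and 5 it took 39.9 and 34.9%. The 10 libraries thus lay at 3 separate shares, and 2 of these levels occurred within each genotype.

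Over 1736 aligned bases the Eno1 transcript and the Eno1b transcript differed at 9 positions, of which 8 lie in the coding sequence of Eno1. The aligned part of the 2027-base Eno1 transcript (GENCODE M21) has an identity of 99.5% with the copy and no gap, so that reads which miss those positions fit both genes equally.

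With Eno1, Eno1b and the pseudogene Gm4735 summed, the libraries had 720, 689, 829, 894 and 630 CPM in knock-in and 768, 723, 932, 859 and 782 CPM in control macrophages. The sum varied far less between libraries than Eno1 alone. The direction of the fitted difference depended on the counting, at a log2 of 0.33 ± 0.29 for Eno1 alone and -0.11 ± 0.098 for the sum, a setting added after the data were seen. Neither passed the test (adjusted p = 0.881 for each), and no direction is given for enolase. The copies of Gapdh took 0.333% of its level and the genes that match Pkm took 1.68%, and with them added the log2 fold changes were -0.023 ± 0.072 for Gapdh and -0.0083 ± 0.062 for Pkm.

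**Figure D3:**
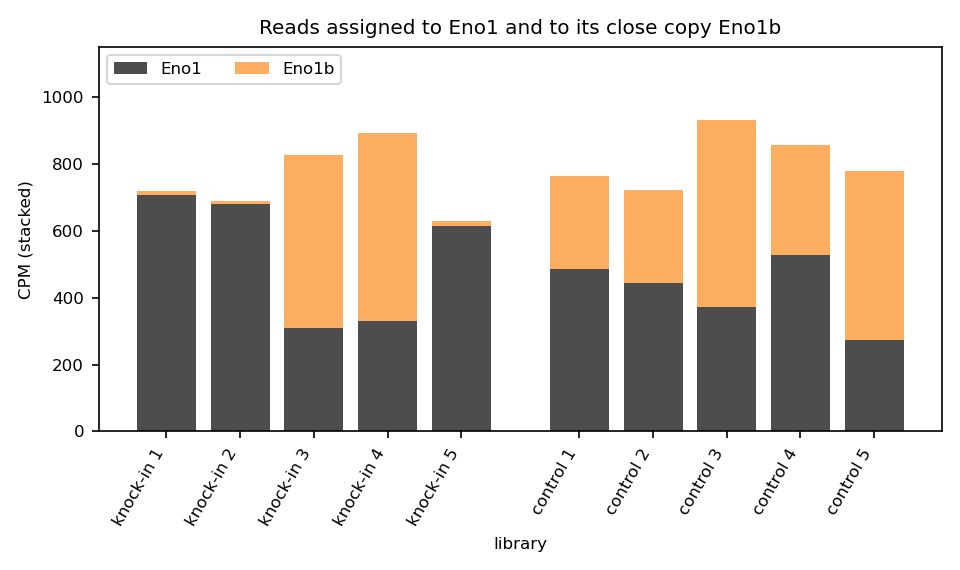
Stacked CPM of Eno1 (dark) and its copy Eno1b (light) in each library, knock-in on the left. Eno1b is near 0 in knock-in 1, 2 and 5 (13.7, 8.06 and 13.9 CPM), and Eno1 is lowest in knock-in 3 and 4 and in controls 3 and 5.

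Pyruvate is turned to lactate by Ldha and kept from the mitochondria by Pdk1, a kinase that shuts pyruvate dehydrogenase. Ldha had 572, 556, 568, 601 and 551 CPM in knock-in libraries, against 591, 555, 555, 596 and 514 CPM in control libraries. The groups overlapped, and its interval of 2 SE ran from -0.090 to 0.13 around a log2 fold change of 0.018. Pdk1 had 87.8, 75.8, 82.2, 73.3 and 75.8 CPM in knock-in libraries, against 71.8, 87.5, 89.7, 75.7 and 90.9 CPM in control libraries (log2 -0.072 ± 0.077). The lactate exporter Slc16a3 and Slc16a1, a carrier for both uptake and export, had log2 fold changes of 0.088 ± 0.13 and 0.032 ± 0.067.

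Among the regulators of the hypoxia response, Hif1a had 97.99, 95.8, 90.0, 97.0 and 92.0 CPM in knock-in libraries, against 100.1, 78.4, 86.4, 99.3 and 91.2 CPM in control libraries. All knock-in libraries lay within the range of the controls, and the log2 fold change was 0.054 ± 0.067. Epas1, which encodes HIF-2 alpha, had 8.24, 11.8, 11.0, 30.8 and 12.2 CPM in knock-in libraries, against 41.1, 10.2, 14.7, 45.0 and 13.6 CPM in control libraries. The 3 stroma-rich libraries held 30.8 to 45.0 CPM and the other 7 held 8.24 to 14.7 CPM. The log2 fold change of Epas1 was -0.77 ± 0.55 (adjusted p = 0.856), and its size rested on those libraries. It was -0.43 without control 4, -0.52 without control 1, -1.22 without knock-in 4 and -0.24 without all 3, and it turned to 0.21 with the neutrophil score as a covariate.

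Egln1, the main oxygen sensor of the hydroxylases, was among the steadiest members, with 48.3, 45.9, 49.2, 45.6 and 46.2 CPM in knock-in libraries, against 47.2, 48.5, 48.5, 48.7 and 48.8 CPM in control libraries. Its log2 fold change was -0.039 ± 0.044. Egln2 had a log2 fold change of -0.037 ± 0.098. Egln3, which HIF itself induces, was low, with 25 to 50 counts in knock-in and 25 to 79 counts in control libraries, and the highest count came from control 1 (log2 -0.38 ± 0.26, adjusted p = 0.849). Without control 1 the log2 fold change of Egln3 was -0.10.

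Ero1l (ENSMUSG00000021831, chromosome 14, 45283087 to 45318771 in GRCm38, minus strand) had the smallest p of the set. It encodes an oxidase of the endoplasmic reticulum that drives disulphide bond formation and is induced by hypoxia. It had 90.9, 83.5, 89.0, 88.6 and 88.7 CPM in knock-in libraries, against 85.6, 63.1, 56.9, 69.8 and 61.8 CPM in control libraries. In knock-in macrophages 4 of 5 libraries lay above all controls, and control 1 lay inside the knock-in range. The means were 88.2 ± 2.75 CPM in knock-in and 67.4 ± 11.2 CPM in control macrophages (SD, n = 5 each), a 1.31-fold difference (log2 0.39 ± 0.092). In edgeR it did not pass (adjusted p = 0.323, unadjusted p = 0.00107). An exact 2-sided permutation test of its log2 CPM over all 252 assignments gave p = 0.0159, where the smallest possible value is 0.00794, not adjusted for the number of genes. The permutation test was run only for Ero1l and Mxi1, picked by their edgeR unadjusted p in the same libraries. It therefore adds no independent evidence. DESeq2 called Ero1l (adjusted p = 0.0288), as did edgeR without control 1 (log2 0.49, adjusted p = 0.00511) and without the 3 stroma-rich libraries (log2 0.54, adjusted p = 0.00226). Over all alternatives the log2 difference ran from 0.18 to 0.54 and the adjusted p from 0.00226 to 0.827. The lowest difference came from the deposited log2 values, which averaged 10.71 ± 0.046 in knock-in and 10.53 ± 0.20 in control macrophages and are shrunken on that scale.

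Mxi1, a MAX partner that opposes MYC, had 31.6, 29.3, 31.6, 35.4 and 26.4 CPM in knock-in libraries, against 39.4, 33.5, 31.1, 38.8 and 32.8 CPM in control libraries. The highest library of each genotype was stroma-rich, and a single knock-in library exceeded the median control. The log2 fold change was -0.19 ± 0.088 (edgeR adjusted p = 0.795, unadjusted p = 0.0498), and the exact 2-sided permutation test gave p = 0.111. Without the stroma-rich libraries the unadjusted p of Mxi1 was no longer under 0.05.

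The intervals of the remaining genes induced by hypoxia included 0. Vegfa had 111, 106, 109, 119 and 76.1 CPM in knock-in libraries, against 96.8, 87.0, 110, 120 and 97.7 CPM in control libraries (log2 0.023 ± 0.12). Ndrg1, a stress-responsive gene of the NDRG family, had 34.7, 34.8, 40.5, 31.9 and 50.7 CPM in knock-in libraries, against 29.5, 53.9, 42.3, 30.0 and 38.6 CPM in control libraries (log2 -0.0082 ± 0.19). P4ha1, which hydroxylates collagen prolines, averaged 91.8 ± 7.74 CPM in knock-in and 93.3 ± 14.0 CPM in control macrophages. Ddit4, an inhibitor of the MTOR kinase, held 15, 15, 22, 42 and 16 counts in knock-in libraries, against 56, 14, 14, 110 and 14 counts in control libraries. Its highest counts were those of the 3 stroma-rich libraries, and its log2 fold change was -0.59 ± 0.49 (adjusted p = 0.872). That value was -0.20 without control 4, -0.35 without control 1 and -0.97 without knock-in 4, and it turned to 0.14 without all 3. Adm, the vasodilator peptide adrenomedullin, held 1, 3, 2, 2 and 1 counts in knock-in libraries, against 12, 0, 0, 13 and 2 counts in control libraries. It was therefore not tested, and its only counts above 3 came from the stroma-rich controls.

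**Figure D4:**
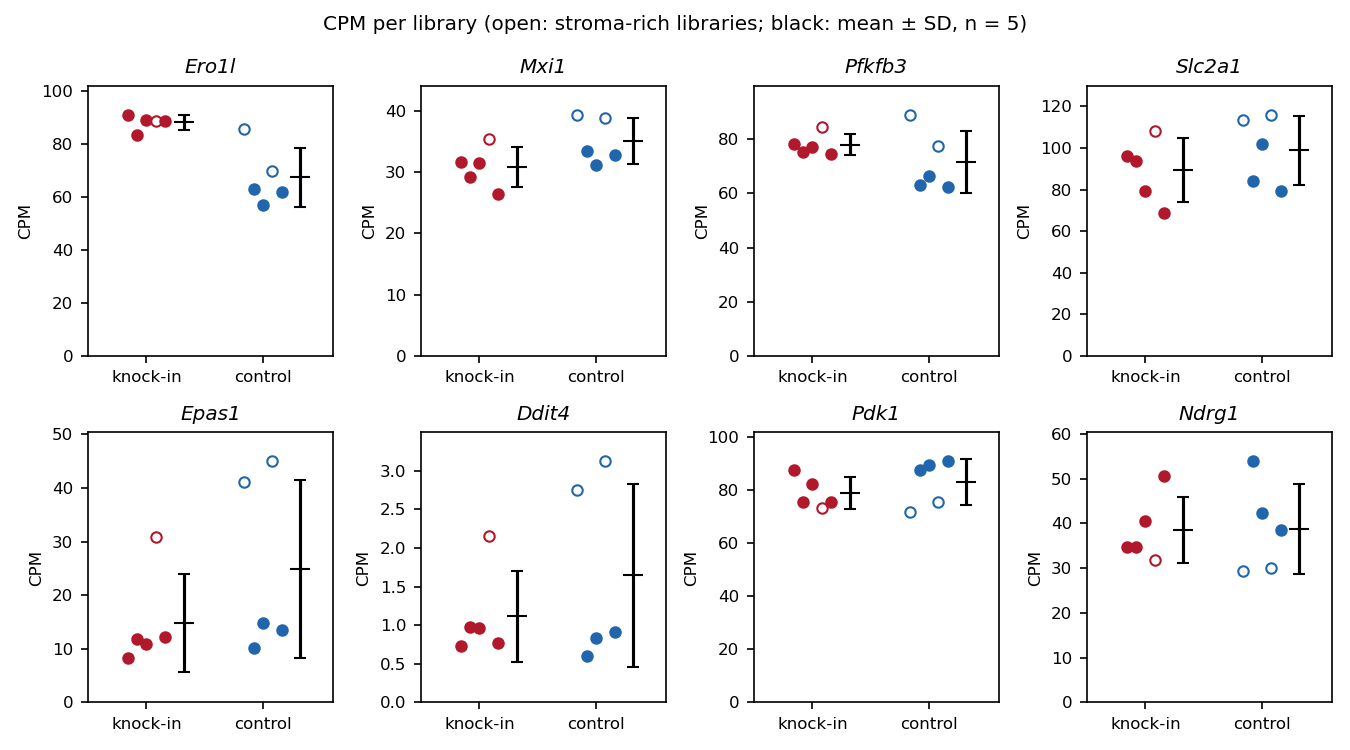
CPM of 8 genes in each library, knock-in on the left and control on the right, with open circles for the 3 stroma-rich libraries and mean ± SD (n = 5) in black. For Ero1l the knock-in libraries sit between 83.5 and 90.9 CPM, and for Epas1 and Ddit4 the open circles stand above the rest.

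Part of the set moved together from library to library within a genotype. After the mean of each genotype was taken away, the median Pearson correlation of log2 CPM over the 465 pairs of tested members was 0.30, where it was -0.001 over all pairs of tested genes. A correlation over 0.7 was found for 17.8% of the member pairs and 3.58% of all pairs. These are descriptions over 10 libraries, and the genes share the same libraries and scaling. Gapdh went most closely with Gpi1 (0.94), Slc2a1 (0.88), Pkm (0.88) and Pfkl (0.86). Ndrg1 and Pdk1 ran against Gapdh, at -0.64 and -0.53. The median correlation with the other members was below 0 for Hk3 (-0.24), Pfkp (-0.014), Egln1 (-0.072), Egln3 (-0.084), Pdk1 (-0.36) and Ndrg1 (-0.57).

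The order of the libraries followed their stromal and neutrophil markers for part of the set. For 10 of the 31 tested members (32.3%) knock-in 4 was the highest knock-in library and controls 1 and 4 were the highest controls, a pattern shown by 8.45% of all tested genes. These were Slc2a1, Pfkl, Pfkfb3, Pgk1, Pgam1, Ldha, Epas1, P4ha1, Ddit4 and Mxi1. The opposite order was found for Pdk1 and Ndrg1 (6.45% of the members, against 7.72% of all tested genes). The mean log2 CPM of the neutrophil markers was 2.87 in knock-in 4 and 1.10 to 2.28 in the other knock-in libraries, and 3.65 and 3.97 in controls 1 and 4 and 1.79 to 2.61 in the other controls. The mean log2 CPM of the proliferation markers was lowest in the same libraries, at 5.14 in knock-in 4 and at 5.15 and 5.12 in controls 1 and 4. By their sum, however, control 1 (1137 CPM) lay above knock-in 5 (1091 CPM) and control 3 (1093 CPM). The mean log2 CPM of the 31 members was 6.64, 6.63, 6.62, 6.74 and 6.55 in knock-in libraries 1 to 5, and 6.80, 6.54, 6.64, 6.83 and 6.53 in control libraries 1 to 5. Its highest value in each genotype was again that of a stroma-rich library, and the genotypes differed by -0.031, less than the SD of either.

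The split of directions changed when marker scores were added to the fit or these libraries were left out. With the neutrophil score as a covariate, 23 of 31 members were positive (median log2 0.062), against 49.1% of all genes. In that fit 0 members were called, against 0.0645% of all genes, and 6 members (19.4%) had an unadjusted p under 0.05, against 7.54% of all genes. Of these, Ero1l, Slc16a3, Pfkfb3 and Pfkl had log2 fold changes of 0.49, 0.29, 0.28 and 0.20, and Pdk1 and Ndrg1 had -0.18 and -0.29. The neutrophil score itself was 1.10 to 2.87 in knock-in and 1.79 to 3.97 in control libraries. Within a genotype many members went up with it and with each other, so the 23 are not independent results. How much of the shift came from this imbalance was not tested. With the stromal score as a covariate 17 members were positive and 0 were called, against 0.105% of all genes. Without the 3 stroma-rich libraries 17 members were positive, and 3 (9.68%) had an unadjusted p under 0.05, Ero1l, Pfkfb3 and Pdk1, against 6.9% of all genes.

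**Figure D5:**
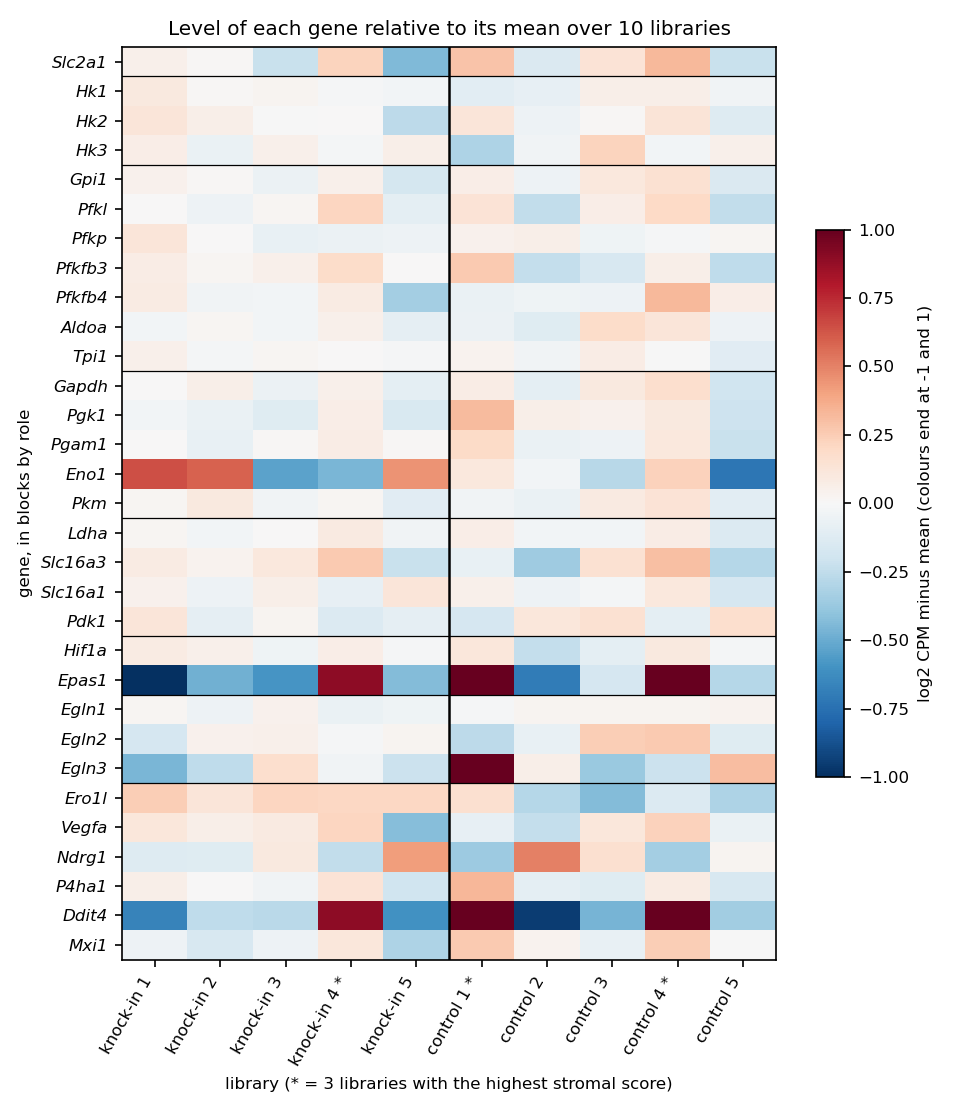
log2 CPM of each tested gene in each library minus its mean over the 10 libraries, knock-in on the left, in blocks by role; asterisks mark the 3 stroma-rich libraries. Red is above and blue below the mean: Slc2a1, Epas1, Ddit4 and Mxi1 are red in the marked columns, Eno1 changes between libraries of the same genotype, and Ero1l is red in all 5 knock-in libraries and in control 1.

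The promoters of the set were searched for the core of the HIF binding site, ACGTG or GCGTG, on both strands in the 250 bases before each RefSeq start (GRCm38.p6). A CACGTG, which is also the E-box bound by MYC and its relatives, holds ACGTG on both strands and counts as 2 matches. Of the 30 members with a promoter in the table, 28 (93.3%) held at least 1 match in at least 1 of their windows, against 61.4% of the 9362 tested genes in the table and 41.5% of all 27025 genes. At least 2 matches were held by 66.7% of the members and 31.9% of the tested genes. Members had 1.43 windows per gene and tested genes 1.28. The members were listed in part for their known HIF control, so this is a description of the list. Tpi1 and Gpi1 held no match.

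Below are 250 bases before a RefSeq start of Ero1l, shown as the member with the smallest p, and of Slc2a1 and Ldha, shown as genes whose levels went with many other members. RefSeq starts differ from the GENCODE M21 gene positions. The Ero1l and Slc2a1 windows overlap the GENCODE gene in part, and the Ldha window lies inside it. Capitals mark the matches. The Ero1l window is chr14:45318573-45318822 on the minus strand and begins its 3 matches 128, 88 and 63 bases before the start. The Slc2a1 window is chr4:119108495-119108744 on the plus strand, with 2 matches, and the Ldha window is chr7:46845554-46845803 on the plus strand, 1 of 2 windows of that gene, with 5 matches that include a pair of CACGTG.
Ero1l: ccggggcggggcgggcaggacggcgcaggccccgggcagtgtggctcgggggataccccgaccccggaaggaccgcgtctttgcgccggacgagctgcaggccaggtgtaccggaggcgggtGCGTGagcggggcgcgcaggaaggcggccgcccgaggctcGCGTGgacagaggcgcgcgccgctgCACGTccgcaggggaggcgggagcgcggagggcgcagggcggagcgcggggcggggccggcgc
Slc2a1: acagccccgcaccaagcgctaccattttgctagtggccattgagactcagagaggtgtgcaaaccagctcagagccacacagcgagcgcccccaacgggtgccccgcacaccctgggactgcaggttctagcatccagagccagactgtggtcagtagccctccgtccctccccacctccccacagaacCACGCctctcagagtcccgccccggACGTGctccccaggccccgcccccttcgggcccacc
Ldha: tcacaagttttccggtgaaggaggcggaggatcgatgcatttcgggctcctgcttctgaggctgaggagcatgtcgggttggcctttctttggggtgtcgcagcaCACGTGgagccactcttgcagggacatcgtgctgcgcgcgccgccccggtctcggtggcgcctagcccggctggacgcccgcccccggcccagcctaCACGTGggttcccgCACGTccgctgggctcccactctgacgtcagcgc

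The neighbouring pathways held no called gene either. In 8 lists with 170 tested genes outside the set, 0 passed over all genes, 13 (7.65%) had an unadjusted p under 0.05, against 6.21% of all tested genes, and 79 were positive. Among the other isozymes and enzymes of glycolysis 11 of 21 were positive (median log2 0.0010). Galm, which interconverts the forms of glucose, averaged 24.2 ± 1.04 CPM in knock-in and 27.5 ± 2.18 CPM in control macrophages, and the glucose carrier Slc2a3 5.10 ± 0.399 CPM in knock-in and 4.26 ± 0.364 CPM in control macrophages. In the pentose phosphate pathway, which branches off after hexokinase, 1 of 11 tested genes was positive and 10 were negative (median -0.040). G6pdx, its entry enzyme, averaged 310.4 ± 23.5 CPM in knock-in and 348 ± 25.5 CPM in control macrophages (log2 -0.17 ± 0.068, adjusted p = 0.744). Rpia, the ribose phosphate isomerase, was the exception, at 16.6 ± 0.799 CPM in knock-in and 14.4 ± 1.10 CPM in control macrophages (log2 0.21 ± 0.071). In this list the fits leaving out 1 library gave 2 to 4 positive genes, and all alternatives gave 1 to 5. Of all tested genes 48.3% were positive in the main test.

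Of the genes for pyruvate entry and the citric acid cycle, 11 of 33 were positive and 22 negative (median -0.028), and over the alternatives 7 to 17 were positive. Suclg1, of succinyl-CoA ligase, averaged 46.7 ± 1.49 CPM in knock-in and 52.6 ± 4.99 CPM in control macrophages, and Sdhb, of succinate dehydrogenase, 95.3 ± 3.87 CPM in knock-in and 104 ± 4.44 CPM in control macrophages. In the glycogen and gluconeogenesis list 7 of 15 were positive (median -0.0036). Gbe1, the glycogen branching enzyme, averaged 20.2 ± 3.83 CPM in knock-in and 25.7 ± 3.59 CPM in control macrophages, and Phkg2, of phosphorylase kinase, 20.4 ± 0.693 CPM in knock-in and 22.0 ± 1.10 CPM in control macrophages.

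Further HIF targets outside the set had 16 of 36 positive (median -0.038), a majority that turned under some alternatives. The count was 22 without control 1, 23 without the 3 stroma-rich libraries, 24 with the stromal and 27 with the neutrophil score as a covariate, and 13 at its lowest, without control 3. Rora, a nuclear receptor, averaged 25.4 ± 2.07 CPM in knock-in and 21.9 ± 0.771 CPM in control macrophages (adjusted p = 0.605), and Mt1, a metallothionein, 34.1 ± 3.84 CPM in knock-in and 39.8 ± 2.37 CPM in control macrophages. HIF partners and regulators had 11 of 23 positive (median -0.0057). Arnt2, an alternative HIF partner, was low at 1.10 ± 0.285 CPM in knock-in and 1.69 ± 0.508 CPM in control macrophages, and the chaperone Hsp90ab1 1009 ± 6.46 CPM in knock-in and 1062 ± 64.6 CPM in control macrophages. MYC, MTOR and AMPK regulators had 18 of 25 positive (median 0.051). Tsc1, an inhibitor of MTOR signalling, averaged 56.2 ± 3.05 CPM in knock-in and 51.1 ± 1.99 CPM in control macrophages without overlap (adjusted p = 0.706), and Mnt, a MAX partner, 57.0 ± 2.45 CPM in knock-in and 50.1 ± 8.48 CPM in control macrophages. Monocarboxylate carriers and their partners had 5 of 8 positive (median 0.028). Car2, a carbonic anhydrase, averaged 3.82 ± 0.481 CPM in knock-in and 5.26 ± 0.814 CPM in control macrophages without overlap (log2 -0.46 ± 0.14, adjusted p = 0.605), and Slc16a6 16.7 ± 1.24 CPM in knock-in and 14.2 ± 2.04 CPM in control macrophages. Of the 170 genes, Tsc1 and Car2 were the 2 without overlap, where 1.32% of all tested genes did not overlap.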

How the data were processed

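Strand-specific poly(A)+ libraries were read as pairs of 100 bases, at 20 M reads per sample, per the labels' protocols. Per the submitters' processing notes, the tools were Salmon 1.6.0, DESeq2 1.34.0 and MultiQC and the builds mm10 and GRCm39, with no role given for any. The sources used here do not give the annotation, the strand setting or how transcripts became genes. One deposited table has the authors' estimated counts for each gene, rounded here to whole numbers. The other deposited table has log2 values, regularized by its name. Positions and exon lengths came from GENCODE M21 (GRCm38) by gene ID.

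Genotype was tested with edgeR 4.0.16 in R 4.3.3 on TMM-scaled counts, after filterByExpr (minimum count 10, total 15), with a robust quasi-likelihood F-test, no covariate and Benjamini-Hochberg adjustment over 12411 genes (threshold 0.05). An SE is the fold change over the root of its F. Log2 CPM used a prior count of 2. Alternatives were other scalings and filters, DESeq2 1.42.0, limma 3.58.1 on counts and on the deposited log2 values, no robust estimation, the replicate block, marker scores as covariates and libraries left out. Summing copies was added after the data were seen. Copies are other genes matching over at least 100 bases at 98% identity (blastn 2.17.0). For pairs of libraries of a genotype the chi-square, averaged over genes, was 9.01 to 52.5. No library thus looked like a repeat of another of its own genotype. The main edgeR test was tried on simulated counts without stromal differences between libraries, and its recovery of small changes is not given here. The p-values measure the spread between mice of 1 series.

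The members, lists and tests were chosen with earlier results of these data known. Named are all members and, of each related list, the 2 genes with the smallest p. Values per library were due for members with an unadjusted p under 0.05 or without overlap (none) and for the most abundant of each role; those of Pfkfb3, Eno1, Pdk1, Epas1, Egln3, Ndrg1, Ddit4 and Adm, and the genes near Eno1, were chosen after they were seen.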

Additional observations from a re-analysis of the deposited data

Results flagged for a closer look

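Of the 62 groups of 5 libraries formed by the 31 tested members, 4 had 1 library set apart from the other 4 by more than 0.71 of the group's range, a gap that chance gives in about 1 of 20 groups. Epas1 had 30.8 CPM in knock-in 4, against 8.24 to 12.2 CPM in the other knock-in libraries. Ddit4 had 2.15 CPM in knock-in 4, against 0.731 to 0.975 CPM in the others. Knock-in 4 is the knock-in library with the most stromal RNA. Vegfa had 76.1 CPM in knock-in 5, below 106 to 119 CPM in the other knock-in libraries. Egln1 had 47.2 CPM in control 1, below the 48.5 to 48.8 CPM of the other controls, a gap that is small against its level.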

How the results depend on the processing

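The count of called members was 0 in the main test and 0 in each alternative except 3, which called Ero1l: DESeq2 (1 member), edgeR without the 3 stroma-rich libraries (1 member) and edgeR without control 1, so that the fits leaving out 1 library called 0 to 1. Over all genes 10 were called, and 52 in DESeq2, 38 without the 3 stroma-rich libraries and 6 to 23 when 1 library was left out (6 without control 2 or knock-in 1, 2 or 3, 23 without knock-in 4); the cause was not tested. No gene of the 8 related lists was called in the main test or in any alternative run. Of 685 fold changes of members under the alternatives, 681 moved by less than the SD between libraries without a change of call. With the neutrophil score as a covariate Ddit4 turned to a log2 of 0.51 and Epas1 to 0.21. Over the alternatives the number of positive genes ran from 1 to 5 in the pentose phosphate list, 7 to 17 in the citric acid cycle list, 13 to 27 among further HIF targets, 8 to 15 among HIF partners, 14 to 21 among MYC, MTOR and AMPK regulators, 2 to 5 among monocarboxylate carriers, 10 to 14 among isozymes and 6 to 8 in the glycogen list. The promoter search to 50 bases after the start gave 93.3% of the members, as in the shorter window. The replicate numbers are not said to pair the mice, and the expression values cannot settle this. Same-numbered libraries had correlations of deviations from -0.20 to 0.51, with 2 of 5 over 0.1. Of the 10 libraries, 4 went best with their own number. The replicate block gave 12 called genes and 0 called members. Egln3, Ddit4 and Adm had few counts, which limits what can be detected for them.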

Other observations

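Some other genes near Eno1 on chromosome 4 went with the level of Eno1b over the 10 libraries. Within 1 Mb of Eno1, 21 other genes were tested, and 5 of them (23.8%) had a correlation with the log2 CPM of Eno1b beyond 0.8 in either direction, against 0.669% of all tested genes. Clstn1 (calsyntenin, chromosome 4, 149586468 to 149648899 in GRCm38) had 6.92, 7.54, 28.0, 31.7 and 7.22 CPM in knock-in libraries 1 to 5, against 28.9, 20.6, 29.3, 38.3 and 26.0 CPM in control libraries 1 to 5. Gpr157, an orphan receptor, had 22.0, 20.1, 42.6, 49.6 and 25.9 CPM in knock-in libraries, against 40.6, 36.5, 46.2, 40.4 and 40.9 CPM in control libraries. Camta1, a transcription activator, had 2.73, 2.54, 5.54, 4.82 and 2.63 CPM in knock-in libraries, against 4.61, 4.69, 3.66, 4.03 and 4.68 CPM in control libraries. For these 3 genes knock-in 1, 2 and 5, the libraries in which Eno1b was near 0, were the lowest of all 10. Ube4b and Vamp3 ran the other way, with correlations of -0.81 and -0.91. Among the controls, Ube4b and Vamp3 were lowest in controls 3 and 5, whereas Clstn1 and Camta1 did not set these apart. Gpr157 was highest in control 3, but control 5 (40.9 CPM) was barely above control 1 (40.6 CPM). Within 1 Mb of Eno1b on chromosome 18, 1 other gene was tested and 0 had such a correlation. The correlations are descriptions over 10 libraries, and the window and the limit of 0.8 were chosen after the values were seen.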
